A study of Mus musculus with 4 samples.

Results

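Gfi1 and Gfi1b, a pair of related zinc-finger repressor genes, were examined together with 6 genes whose products act with them: Kdm1a, Rcor1, Ehmt1, Ehmt2, Zbtb17 and Pias3. Every probe set whose only gene symbol in the array platform's annotation was one of these 8 was taken, which gave 13 of 45037 probe sets. Gfi1, Gfi1b, Ehmt1 and Zbtb17 had 1 probe set each, Kdm1a, Ehmt2 and Pias3 had 2 each and Rcor1 had 3. The arrays profiled CD4+CD8+ double-positive thymocytes, immature T cells in the thymus bearing both coreceptors, sorted by flow cytometry from C57BL/6 mice. 2 arrays were labelled hCD2-iCre x Gfi1fl/fl and are called knockout-labelled (KO-labelled beside values) below, and 2 were labelled WT. In the hCD2-iCre x Gfi1fl/fl mice a Cre recombinase, driven by regulatory sequence of the human CD2 gene and so active in the lymphoid lineage at large, was combined with a floxed Gfi1 gene. The WT label names no recombinase, so an effect of the transgene and one of the floxed gene cannot be told apart. The labels gave neither the animals' age nor whether replicates came from separate or pooled animals, and p-values therefore cover the spread among these 4 samples alone, which may be technical. The comparison asked how far the transcripts of the repressor and of its partners differed between the genotypes.

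GFI1 and GFI1B are nuclear proteins that bind DNA through zinc fingers in their C-terminal part and recruit repressors through a short N-terminal SNAG domain. The SNAG domain binds the histone demethylase LSD1, the product of Kdm1a, which works in a complex with the scaffold CoREST, the product of Rcor1, and with histone deacetylases. GFI1 also works with the histone H3 methyltransferases G9a and GLP, the products of Ehmt2 and Ehmt1, and it is brought to some promoters by MIZ1, the product of Zbtb17. In T cells GFI1 binds PIAS3, an inhibitor of STAT3. Both factors are known to repress their own and each other's genes, Gfi1 being the one prominent in thymocytes and Gfi1b the one prominent in erythroid cells and megakaryocytes.

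Since that repression acts at the promoters, those of the pair are shown, as 250 bases before to 50 bases after a transcription start, from RefSeq on the build GRCm38.p6. All 8 genes had such a window. Gfi1 lies on chromosome 5 between 107716655 and 107725805 and has windows at its outer start, chr5:107725756-107726055, and at an inner start, chr5:107724294-107724593. Gfi1b lies on chromosome 2 between 28609450 and 28621982, with a window at chr2:28621933-28622232. All 3 windows are on the minus strand and are written 5′ to 3′, with capitals marking AATC, the core of the sequence that GFI1 and GFI1B bind, on either strand (GATT where it lies on the other one).
Gfi1 outer start: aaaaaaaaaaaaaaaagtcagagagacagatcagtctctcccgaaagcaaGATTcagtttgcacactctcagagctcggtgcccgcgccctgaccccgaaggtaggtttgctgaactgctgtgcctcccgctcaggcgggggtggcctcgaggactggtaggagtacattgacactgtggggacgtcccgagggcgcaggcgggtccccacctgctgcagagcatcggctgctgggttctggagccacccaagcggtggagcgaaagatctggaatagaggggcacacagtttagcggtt
Gfi1 inner start: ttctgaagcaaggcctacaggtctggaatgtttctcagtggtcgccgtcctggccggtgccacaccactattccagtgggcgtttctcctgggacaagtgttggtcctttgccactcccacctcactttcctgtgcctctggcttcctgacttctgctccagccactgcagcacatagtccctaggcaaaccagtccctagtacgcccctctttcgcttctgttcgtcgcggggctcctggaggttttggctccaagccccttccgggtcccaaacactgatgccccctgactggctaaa
Gfi1b: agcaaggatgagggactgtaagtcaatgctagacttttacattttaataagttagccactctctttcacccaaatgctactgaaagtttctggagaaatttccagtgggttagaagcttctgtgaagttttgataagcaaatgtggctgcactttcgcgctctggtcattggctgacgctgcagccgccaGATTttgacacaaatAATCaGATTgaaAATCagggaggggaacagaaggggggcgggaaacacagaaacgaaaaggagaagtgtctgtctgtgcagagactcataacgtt
The window of the outer Gfi1 start held 1 AATC and that of the inner start held 0. The Gfi1b window held 4, a count reached by 10.1% of 32851 windows of the same length, while 73.1% of them held at least 1. Those windows were not matched for base composition. G and C made up 44.3% of the Gfi1b window and 58.0% of each Gfi1 window. The longer forms AAATCAC and TAAATCAC, which contain AATC, were found on neither strand of any of the 12 windows of the 8 genes and occurred in 3.20% and 0.578% of all windows. Of the partners, Kdm1a and Pias3 each had 1 AATC in a window, and the windows of Rcor1, Ehmt1, Ehmt2 and Zbtb17 had 0. These matches describe the letters of the windows and were not tied to binding.

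Gfi1 was the member that changed, and its signal was higher on the knockout-labelled arrays. On the log2 scale of the deposited signals, Gfi1 read 11.47 and 11.32 on knockout-labelled replicates 1 and 2 and 10.17 and 10.08 on WT replicates 1 and 2. Both knockout-labelled values lay above both WT values, and the gap between the groups was far wider than the gaps of 0.16 within the knockout-labelled pair and 0.09 within the WT pair. The means were 11.39 ± 0.11 on the knockout-labelled and 10.13 ± 0.06 on the WT arrays (SD, n = 2 each), a difference of 1.27 ± 0.13 (SE) or 2.41-fold in signal (limma over all probe sets, Benjamini-Hochberg adjusted p = 0.00976). Over all probe sets, 0.766% were called at an adjusted p of 0.05, 0.664% higher and 0.102% lower. Gfi1 ranked 273 of 299 called increases by size, and 419 probe sets differed upward by at least as much.

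The Gfi1 call was lost without WT replicate 1 (adjusted p = 0.0526, limma), without WT replicate 2 (0.0683) and without the intensity trend in the prior variance (0.0511), within a range of 0.00464 to 0.0683 over 14 alternatives. The difference itself lay between 1.19 and 1.35 in all of them. An exact permutation over the 4 arrays gave p = 0.333 (two-sided), the smallest that 2 against 2 arrays can give. If the probe set, designed on transcript NM_010278, reads the deleted part of the gene, a knockout would lower its signal, which was instead higher. If the probe set lies outside that part, its signal does not measure the deletion. The sources used here do not place the probe set relative to the floxed exons, so neither the deletion nor the labels were tested. Every direction is therefore one between arrays as labelled. In sorted cells measured in bulk, fewer cells of a kind and less RNA per cell cannot be told apart.

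Gfi1b stayed near the floor of the arrays. It read 2.94 and 2.99 on the knockout-labelled arrays and 2.92 and 2.95 on the WT arrays. The groups overlapped, and each value lay below the lower quartile of its array, those quartiles being between 2.97 and 3.02. The difference was 0.03 with a 95% interval of -0.18 to 0.24 (limma, adjusted p = 1.00). A fall of Gfi1b from such a signal was not detectable, and a rise to a signal well above the array median of 3.54 was not seen. Foxo1, which encodes the forkhead factor of the series' title, was matched by 1 probe set, 1456529_PM_at. That probe set was also at this level, with 2.99 and 2.91 on the knockout-labelled arrays and 3.02 and 3.15 on the WT arrays (limma, adjusted p = 0.891). The annotation left 15588 probe sets unlisted, and others of Foxo1 may be among them. A single dim probe set does not show that Foxo1 is silent or unchanged.

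**Figure D1:**
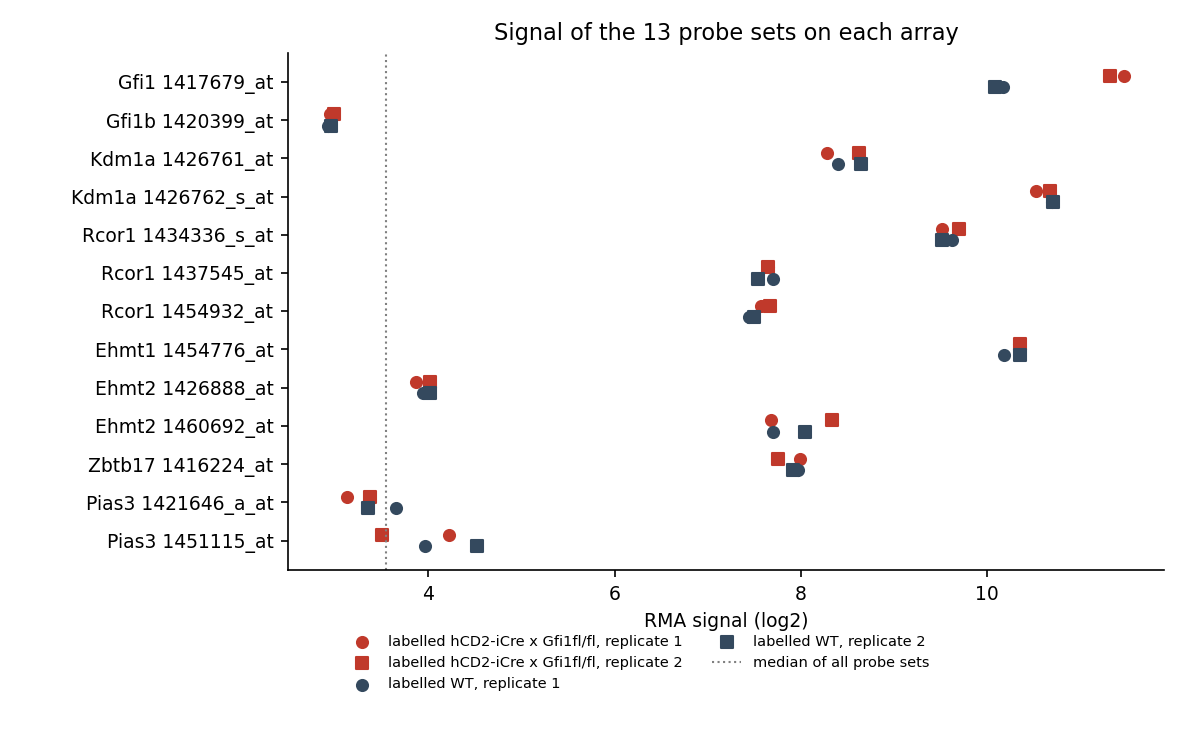
RMA signal on the log2 scale (horizontal axis) of each of the 13 probe sets, 1 point per array, with knockout-labelled arrays in red above WT arrays in dark blue and the median of all probe sets dotted. The Gfi1 pairs stand apart, at 11.47 and 11.32 on the knockout-labelled arrays against 10.17 and 10.08 on the WT arrays, and Gfi1b lies at 2.92 to 2.99 on all arrays. The group means of the other probe sets differ by at most 0.38, though single arrays scatter more, as for 1451115_PM_at of Pias3 (3.50 to 4.52).

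The LSD1-CoREST core was present at high signal and was not called. Kdm1a, the demethylase, was read by a pair of probe sets designed on the same transcript. The brighter one, 1426762_PM_s_at, gave 10.53 and 10.68 on the knockout-labelled arrays and 10.70 and 10.71 on the WT arrays. The groups did not overlap, by a margin of under 0.02 between their nearest arrays, and the difference was -0.10 (95% interval -0.42 to 0.22, limma, adjusted p = 0.983). The other Kdm1a probe set, 1426761_PM_at, gave 8.28 and 8.62 (KO-labelled) against 8.40 and 8.65 (WT), overlapping groups in which replicate 2 was the higher array under both labels (difference -0.07, interval -0.61 to 0.46).

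Rcor1, the scaffold that joins LSD1 to the deacetylases, had 3 probe sets, of which 1434336_PM_s_at and 1454932_PM_at share a target sequence. The brightest, 1434336_PM_s_at, gave 9.52 and 9.69 on the knockout-labelled arrays and 9.62 and 9.52 on the WT arrays. For 1454932_PM_at the values were 7.57 and 7.67 (KO-labelled) against 7.45 and 7.50 (WT), so that the groups did not overlap, and for 1437545_PM_at they were 7.64 and 7.65 (KO-labelled) against 7.70 and 7.55 (WT). The 3 differences were 0.04, 0.15 and 0.02, with intervals that together ran from -0.50 to 0.67 and adjusted p between 0.994 and 1.00 (limma).

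The methyltransferase pair was not called either. Ehmt1, which encodes GLP, gave 10.34 and 10.35 on the knockout-labelled arrays and 10.18 and 10.36 on the WT arrays, where WT replicate 1 was the low array (difference 0.08, 95% interval -0.27 to 0.42). Ehmt2, which encodes G9a, gave 7.68 and 8.33 (KO-labelled) against 7.70 and 8.05 (WT) by its brighter probe set, 1460692_PM_at. Its replicate 2 was high under both labels, by 0.66 in the knockout-labelled and 0.34 in the WT pair, and both gaps exceeded the difference of 0.13 (interval -0.55 to 0.81). The dimmer Ehmt2 probe set, 1426888_PM_at, designed on the same sequence, gave 3.86 and 4.02 (KO-labelled) against 3.94 and 4.02 (WT), close to the array medians (difference -0.04). All 3 had an adjusted p of 1.00 (limma).

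Zbtb17, the MIZ1 gene, gave 8.00 and 7.76 on the knockout-labelled arrays and 7.97 and 7.92 on the WT arrays. The groups overlapped, with the difference at -0.07 (95% interval -0.59 to 0.46, limma, adjusted p = 1.00). Pias3 was dim on both of its probe sets, and 1451115_PM_at had the widest gap between replicates of the 13 (0.72). By that probe set it gave 4.22 and 3.50 (KO-labelled) against 3.97 and 4.52 (WT), a spread within each label wider than the difference of -0.38 (interval -1.09 to 0.32, limma, adjusted p = 0.900). By 1421646_PM_a_at it gave 3.12 and 3.37 (KO-labelled) against 3.66 and 3.35 (WT), with a difference of -0.26 (interval -0.64 to 0.12, adjusted p = 0.839). The Pias3 probe sets disagreed on which replicate was the higher one under each label. Both intervals included 0 and reached further below it than above, so a fall of the Pias3 signal was neither called nor excluded.

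**Figure D2:**
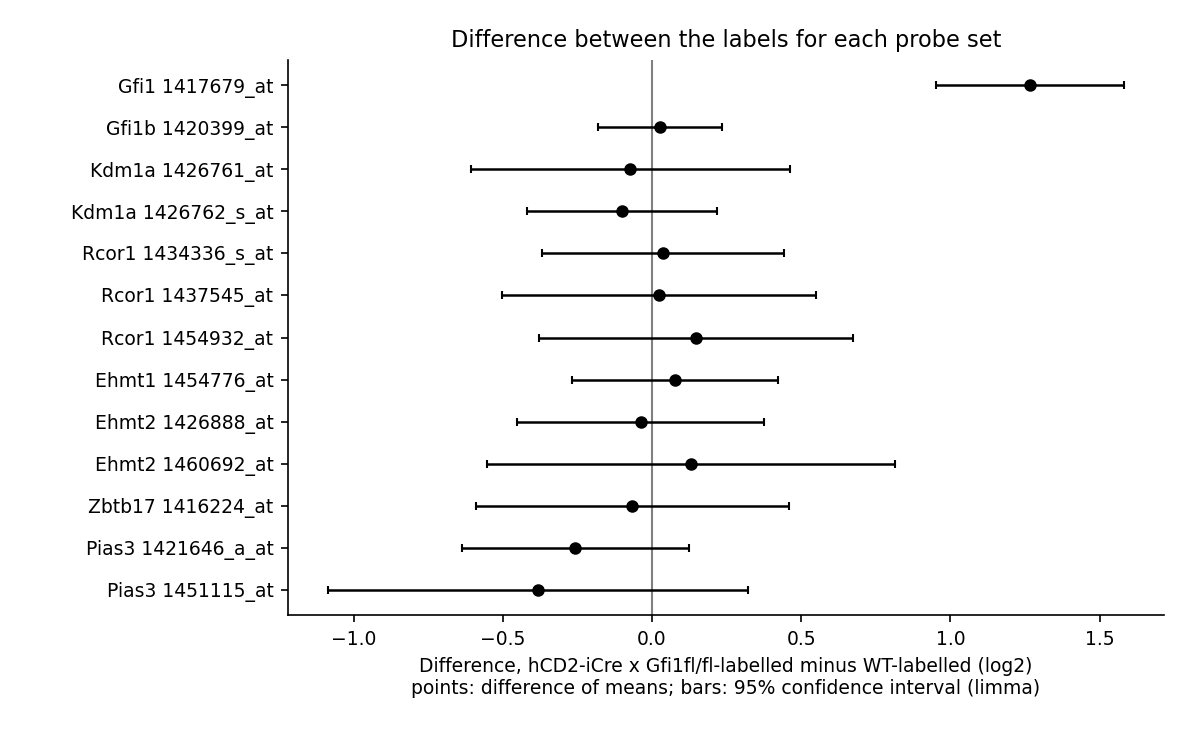
Difference in mean signal, knockout-labelled minus WT (log2, horizontal axis), for each probe set, with 95% confidence intervals from limma. The Gfi1 interval runs from 0.95 to 1.58, while the intervals of the other 12 probe sets all include 0.

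Among the 12 probe sets other than Gfi1, limma called 0, and 0 had an unadjusted p under 0.05, a level reached by 7.64% of all probe sets. Their differences split into 6 above and 6 below 0, with a median of -0.01, which is also the median of all 45037 probe sets. The groups did not overlap for 3 of the 13 probe sets, Gfi1 included, against 34.7% of all probe sets. The intervals of 11 of the 12 lay between -1 and 1 on the log2 scale, the exception being 1451115_PM_at of Pias3. A change of at least 2-fold in signal in either direction was thus outside the interval for each probe set of Kdm1a, Rcor1, Ehmt1, Ehmt2, Zbtb17 and Gfi1b and for 1 of Pias3. For dim probe sets such as that of Gfi1b the interval limits the change in signal, which RMA compresses, and not in transcript amount. Averaging the probe sets of each gene gave differences of -0.09 for Kdm1a, 0.07 for Rcor1, 0.05 for Ehmt2 and -0.32 for Pias3. These were not called, with adjusted p of at least 0.621 (limma on gene means). The Pias3 interval by gene mean, -0.66 to 0.02, was narrower than that of either probe set and just included 0.

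Replicate arrays of 1 label differed in the signals of cell cycle genes. The mean of 33 probe sets of 19 cell cycle genes was 6.97 and 8.37 on knockout-labelled replicates 1 and 2 and 7.58 and 7.96 on WT replicates 1 and 2. Replicate 2 was the higher array for 31 of the 33 in the knockout-labelled pair and for 23 in the WT pair. Between the labels 0 of the 33 were called. The largest difference was that of Aurka, -0.49, with 6.18 and 8.81 (KO-labelled) against 7.50 and 8.46 (WT, limma, adjusted p = 0.996). Of the 13 member probe sets, replicate 2 was higher for 10 in the knockout-labelled pair and for 8 in the WT pair, while over all probe sets these shares were 47.8% in the knockout-labelled and 45.9% in the WT pair. Ehmt2 by 1460692_PM_at and Kdm1a by 1426761_PM_at were higher in replicate 2 under both labels, while Gfi1 was lower in replicate 2 under both, by 0.16 in the knockout-labelled and 0.09 in the WT pair. The part of the cell cycle in the members' values was not tested. The Gfi1 difference was 1.19 without knockout-labelled replicate 1 and 1.35 without knockout-labelled replicate 2. Without WT replicates 1 and 2 it was 1.31 and 1.22. Leaving out an array does not remove the cell cycle from the values.

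**Figure D3:**
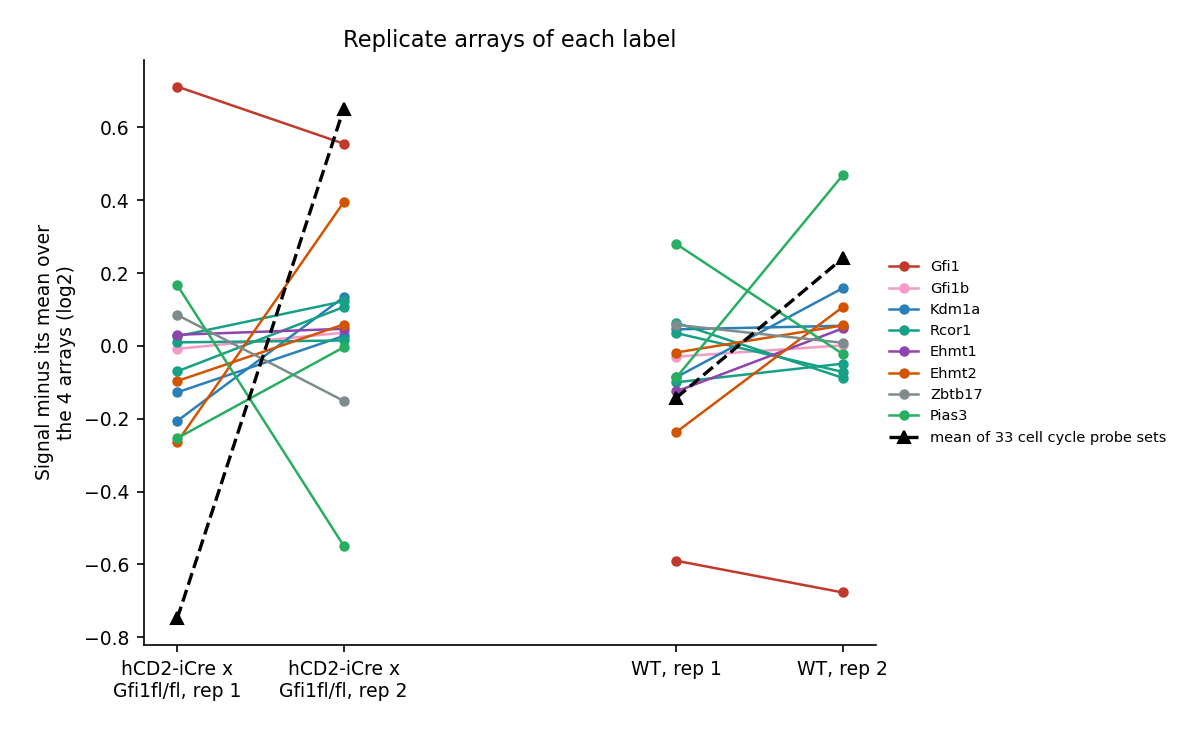
Signal of each member probe set minus its own mean over the 4 arrays (log2, vertical axis) on each array, with lines joining replicates of 1 label; the dashed line with triangles is the mean of the 33 cell cycle probe sets. The cell cycle mean is 6.97 and 8.37 on the knockout-labelled arrays and 7.58 and 7.96 on the WT arrays before centring, and Gfi1 is the only member whose 2 labels are apart by over 1.

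The wider neighbourhood of the repressor was followed in 8 lists besides the cell cycle: 76 measured genes with 165 probe sets. Of these, 2 probe sets rose (1.21%, against 0.766% of all probe sets) and 0 fell, and 13 had an unadjusted p under 0.05 upward and 4 downward (limma). The median difference was 0.00, with 83 of 165 above 0, against 47.2% of all probe sets. Both called probe sets belong to genes of other lists than the complex itself: Snai2, which encodes another SNAG-domain repressor, and Id2, an inhibitor of E proteins and a published GFI1 target.

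Among the LSD1-CoREST-HDAC complex genes, limma called 0 of 18 probe sets of 8 genes, and 0 had an unadjusted p under 0.05. The median was -0.08. The largest difference was that of Phf21a, a reader subunit of the complex, with 4.79 and 4.12 on the knockout-labelled arrays and 4.70 and 5.08 on the WT arrays (adjusted p = 0.860). The deacetylase genes Hdac1 and Hdac2, named here after their values were seen, gave 9.75 and 10.02 (KO-labelled) against 10.02 and 9.90 (WT) for Hdac1, and 9.32 and 9.76 (KO-labelled) against 9.61 and 9.75 (WT) for the brighter Hdac2 probe set. Both had overlapping groups. Among the other histone H3 methyltransferases, their partners and readers, 0 of 29 probe sets of 10 genes were called and 0 had an unadjusted p under 0.05 (median -0.07). Cbx5, which encodes the heterochromatin protein HP1 alpha, had the largest difference there, with 5.45 and 6.83 (KO-labelled) against 6.75 and 6.72 (WT), where knockout-labelled replicate 1 was the low array (adjusted p = 0.885).

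The other SNAG-domain repressor genes held the call of Snai2. It gave 3.74 and 3.60 on the knockout-labelled arrays and 2.92 and 2.80 on the WT arrays, groups that did not overlap. Both WT values lay below the lower quartiles of their arrays, where Gfi1b also lay, so the difference of 0.81 ± 0.12 (SE) is one of signals near the floor and gives no fold of transcript (limma, adjusted p = 0.0441). The call was lost without knockout-labelled replicate 1 (0.0800), without WT replicate 1 (0.151) or 2 (0.240) and without the intensity trend (0.137). Snai3, the family member with the larger difference and named after its values were seen, gave 7.04 and 7.02 (KO-labelled) against 5.64 and 5.32 (WT) by 1456796_PM_at, a difference of 1.55 that was not called (adjusted p = 0.0544) but was called under 5 of the 14 alternatives. Its other probe set, 1421560_PM_at, gave 5.84 and 5.74 (KO-labelled) against 5.67 and 4.72 (WT, adjusted p = 0.811). Of the 15 probe sets of these 8 genes, 13 had means below the array medians, and the list's median was 0.02.

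Of 7 measured genes for other proteins that bind GFI1, limma called 0 of 15 probe sets, with 1 at an unadjusted p under 0.05 (median 0.02). Ajuba, which encodes a LIM-domain co-repressor of SNAG proteins, gave 5.81 and 5.21 on the knockout-labelled arrays and 4.38 and 4.22 on the WT arrays, without overlap (difference 1.21, adjusted p = 0.182). Of 23 probe sets of 10 genes for partners and targets of MIZ1, 0 were called, with 2 upward and 2 downward at an unadjusted p under 0.05 (median 0.04). Mycn, a Myc family gene, gave 4.80 and 5.60 (KO-labelled) against 4.33 and 4.16 (WT, adjusted p = 0.418). Cdkn1a, the cell cycle inhibitor gene that GFI1 and MIZ1 repress, was named after its values were seen and gave 3.35 and 3.55 (KO-labelled) against 3.80 and 3.61 (WT) by its brighter probe set (adjusted p = 0.829).

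In the pathway of PIAS proteins, STAT3 and SUMO, 0 of 19 probe sets of 9 genes were called, with 1 at an unadjusted p under 0.05 (limma, median -0.07). Of the 19 differences 2 lay above 0, against 47.2% of all probe sets, and several genes count more than once. Senp1, a SUMO protease gene, gave 5.18 and 5.43 on the knockout-labelled arrays and 5.82 and 5.94 on the WT arrays by the probe set with the largest difference (adjusted p = 0.649). For 9 genes known to regulate Gfi1 or Gfi1b, 0 of 23 probe sets were called, with 2 at an unadjusted p under 0.05 (median 0.13). The largest difference was that of 1 of 6 Runx1 probe sets, 1427650_PM_a_at, with 6.06 and 5.99 (KO-labelled) against 5.34 and 5.54 (WT, adjusted p = 0.627), while the brightest Runx1 probe set differed by 0.15. Runx1 encodes a transcription factor required in early haematopoiesis and T cell development.

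Among published GFI1 target genes, 1 of 23 probe sets of 15 genes rose and 0 fell, and 6 had an unadjusted p under 0.05 upward and 0 downward (limma). Of the 23 differences 20 lay above 0, against 47.2% of all probe sets, with a median of 0.08. Several genes count more than once here, as Id2 does, and 9 of the 23 means lay below the array medians. Whether the list moved as a set was not tested. Id2 had 3 probe sets, none with overlapping groups. The called one, 1453596_PM_at, gave 5.75 and 5.99 on the knockout-labelled arrays and 3.49 and 4.25 on the WT arrays, with a mean log2 difference of 2.00 ± 0.30 (SE, adjusted p = 0.0425). The brighter pair of Id2 probe sets gave differences of 1.67 and 1.74 (adjusted p = 0.0587 and 0.0627). The call of 1453596_PM_at was lost without knockout-labelled replicate 2 (0.0677), without WT replicate 1 (0.158) and without the intensity trend (0.126). The other probe sets at an unadjusted p under 0.05, named after their values were seen, were those of Id1, Irf8 and Flt3, all without overlap between the groups and not called. Id1, an Id family gene, gave 5.96 and 4.71 (KO-labelled) against 3.92 and 3.68 (WT, adjusted p = 0.261), a difference of 1.53 that was called without knockout-labelled replicate 2. Irf8, a transcription factor gene of myeloid and B cells, gave 4.63 and 4.78 (KO-labelled) against 4.01 and 3.91 (WT) by the probe set 1416714_PM_at, and Flt3, a receptor gene of early progenitors, gave 4.15 and 3.69 (KO-labelled) against 3.34 and 3.46 (WT). Egr1, an immediate-early transcription factor gene, differed by 0.07.

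**Figure D4:**
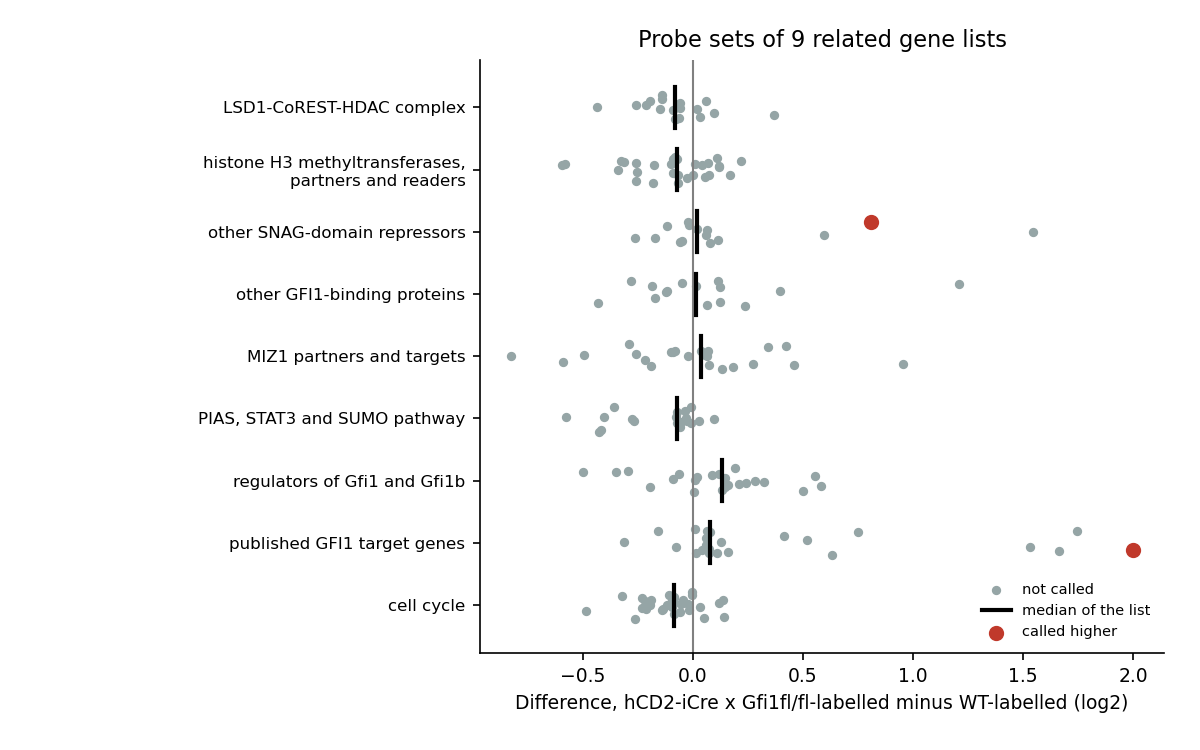
Difference in mean signal, knockout-labelled minus WT (log2, horizontal axis), of each probe set of the 8 related lists and of the cell cycle list, with list medians as black bars and called probe sets in red; points are spread vertically for legibility. The called probe sets are those of Snai2 (0.81) and Id2 (2.00), and list medians lie between -0.09 and 0.13.

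The 5 genes whose profile over the 4 arrays lay nearest to that of Gfi1 were Mafg, Pkm, Snx30, Trim30a and Milr1, by the root mean square difference between log2 profiles centred on their own means, among 28897 other probe sets with 1 gene symbol. Mafg, a small Maf transcription factor gene, was nearest at 0.04, with 6.81 and 6.68 on the knockout-labelled arrays and 5.45 and 5.46 on the WT arrays. Pkm, the pyruvate kinase gene, gave 10.16 and 10.08 (KO-labelled) against 8.88 and 8.73 (WT) and was the only called gene of the 5 (limma, adjusted p = 0.0235). Snx30, a sorting nexin gene, Trim30a, an interferon-inducible TRIM family gene, and Milr1, an immunoglobulin-like receptor gene of mast cells, differed by 1.25, 1.18 and 1.22 with adjusted p between 0.0705 and 0.112. The 4 arrays fall in 2 groups, so any gene with a like-sized step between the labels is near by this measure.

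**Figure D5:**
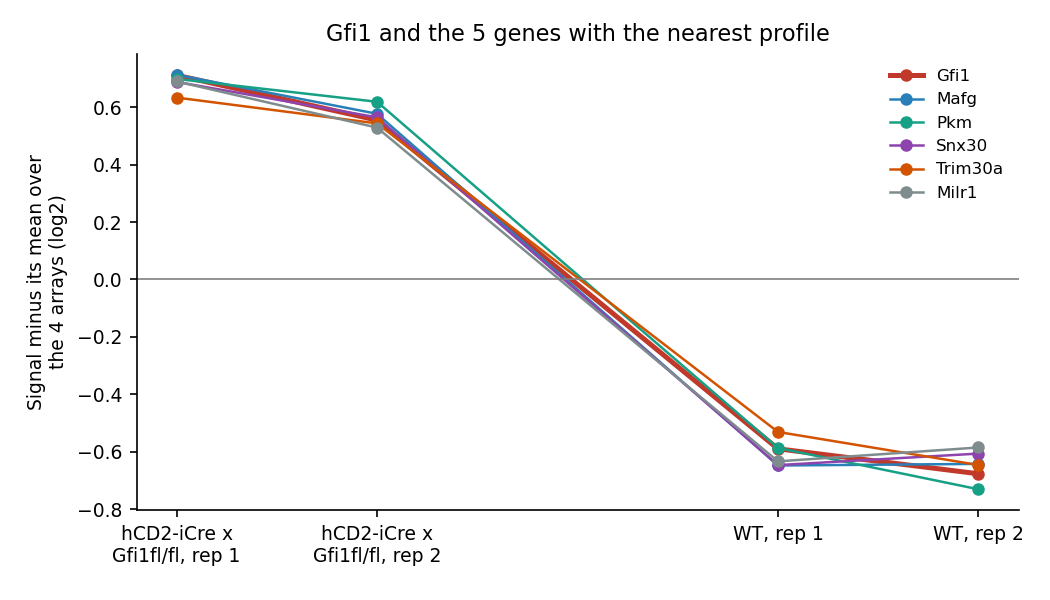
Signal minus its own mean over the 4 arrays (log2, vertical axis) of Gfi1 and of the 5 genes with the nearest profile, on the knockout-labelled arrays at left and the WT arrays at right. All 6 genes step by 1.18 to 1.32 between the labels.

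The sorted identity was visible on all arrays. Of 13 probe sets of double-positive markers none had a mean below the array medians, Cd8a reading 12.48 to 12.78 by its brightest probe set, and 1 was called, Dntt, the terminal transferase gene, which fell by 0.69 on the log2 scale (limma, adjusted p = 0.0381). Summed linear signals of the list were 34318 and 32981 on the knockout-labelled arrays and 35230 and 40138 on the WT arrays. Only 1 of its 13 differences lay above 0, against 47.2% of all probe sets, and their median was -0.215. Markers of mature single-positive thymocytes rose in 4 of 5 probe sets, those of Klf2, Itgb7 and Gimap4, with sums of 2520 and 2806 (KO-labelled) against 229 and 170 (WT). Those of double-negative thymocytes fell in 2 of 15, both of Cd44, with sums of 127 and 134 (KO-labelled) against 283 and 260 (WT). The difference in these sums was carried by the 2 called Cd44 probe sets. Of the 15 differences 7 lay above 0, and 12 of the 15 means lay below the array medians. Since Gfi1 levels change between thymocyte stages, these values stand beside its difference; their part in it was not tested. Markers of granulocytes and monocytes, where Gfi1 is also expressed, were called in 0 of 11 probe sets (0 at an unadjusted p under 0.05), 10 of them below the array medians, with sums of 121 and 123 (KO-labelled) against 122 and 104 (WT). Erythroid and platelet markers, the cells of Gfi1b, were called in 0 of 10, with sums of 878 and 2395 (KO-labelled) against 681 and 2135 (WT). The only one at an unadjusted p under 0.05 was Car2, the carbonic anhydrase gene, at 6.74 and 5.69 (KO-labelled) against 8.51 and 7.66 (WT). Hba-a1, a haemoglobin gene, was at 8.72 and 10.45 (KO-labelled) against 7.35 and 10.17 (WT) by its brightest probe set, while their defining factor genes Gata1 and Klf1 read 3.24 to 3.74 on all arrays. Among B cell, gamma-delta T, NK and innate lymphoid, and thymic epithelial markers, 0 of 9, 0 of 13 and 0 of 10 probe sets were called, with 1, 2 and 3 at an unadjusted p under 0.05. The 3 were both Epcam probe sets, with differences of 1.68 and 0.49, and 1 of Krt8, with -0.30. The sums of the epithelial list were 614 and 406 (KO-labelled) against 306 and 271 (WT), carried by 1 Epcam probe set at 8.63 and 7.69 (KO-labelled) against 6.89 and 6.06 (WT), while both Foxn1 probe sets lay between 2.76 and 3.27. The sums of the B cell list were 239 and 146 (KO-labelled) against 375 and 301 (WT), carried by Cd79b, while 6 of the 9 differences lay above 0. Those of the gamma-delta and innate lymphoid list were 987 and 890 (KO-labelled) against 835 and 736 (WT), carried by Gata3, which is also among the regulators of Gfi1, while the Il17re probe sets differed by -0.28 and -0.45.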

How the data were processed

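RNA of sorted double-positive thymocytes was biotin-labelled with an Affymetrix 3′ IVT kit, per the labels' protocols, and read on 1 array per sample. The submitters' processing notes name RMA and Affymetrix Expression Console 1.1. Values were read as the authors' RMA output in log2, 1 per probe set, since on every array they lay between 2.19 and 13.5 with nearly equal quartiles (medians 3.53 to 3.55), and they were used as deposited by the authors. There were no detection calls, and the number of arrays limits the precision.

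Probe sets were named from the platform annotation: 28898 of 45037 had 1 gene symbol, 551 several, and 15588 were not listed. All 45037 were fitted with lmFit and eBayes of limma 3.58.1 (R 4.3.3) with an intensity trend, no filter and no covariate, and called at a two-sided Benjamini-Hochberg adjusted p of 0.05. Residual degrees of freedom were 2 and the prior added 5.05. The fit was tested on simulated normal values with its own fitted spread, which meet its assumptions by design. That test therefore does not check the calls on these arrays. No sample was dropped or imputed.

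Members and gene lists were chosen with earlier results of these data known. Named are all members with every probe set, Foxo1 and the 5 genes nearest to the Gfi1 profile. So is each called gene of the 9 pathway lists, or else the gene with the largest difference. Other names were chosen with their values known, also where this is not said beside them, as for Egr1. Marker lists name their called genes and defining factors, and their other named genes were likewise chosen with values known. The marker lists share Gata1, Gata3, Csf1r, Elane and Il7r with the pathway lists. Alternatives were a replicate block, other normalizations, filters, priors, probe set rules and leaving out each array. Figures were drawn with matplotlib 3.10.9.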

Additional observations from a re-analysis of the deposited data

How the results depend on the processing

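The Gfi1 difference kept its direction under all 14 alternatives and lay between 1.19 and 1.35 when 1 array was left out. Without the intensity trend it was 1.27 and no longer called (adjusted p = 0.0511, limma), so 0 member probe sets were called (1 at an unadjusted p under 0.05). Leaving out 1 array gave 0 or 1 member calls, 0 without either WT array. Of the other 12 member probe sets none was called under any alternative, and none changed sign except in fits with 1 array left out. There the differences of 1426761_PM_at of Kdm1a ranged from -0.24 to 0.10, of the Rcor1 probe sets 1434336_PM_s_at and 1437545_PM_at from -0.052 to 0.12 and -0.051 to 0.10, of Ehmt1 from -0.0093 to 0.16, of the Ehmt2 probe sets from -0.12 to 0.040 and -0.20 to 0.46, and of Zbtb17 from -0.18 to 0.052.

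Over all probe sets 345 were called, 299 higher and 46 lower. The counts were 205, 182 and 23 without the intensity trend. With fewer features tested they were 190, 161 and 29 by the brightest probe set per gene and 157, 134 and 23 by gene means. Leaving out 1 array gave 168 to 368 calls, 147 to 329 higher and 20 to 73 lower. The 2 calls in the pathway lists became 4 after a second quantile normalization or without the dimmest 50%, 5 without the dimmest 30%, with a robust prior or over probe sets with 1 gene symbol only, 0 without the trend (20 at an unadjusted p under 0.05) and 0 to 4 with 1 array left out. Snai3 was among the added calls under both filters, the robust prior, probe sets with 1 gene symbol and the brightest probe set per gene. The cause was not tested.

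The labels do not say that replicate numbers pair the arrays. Deviations of same-numbered arrays from their group means correlated at 0.30 over all probe sets. With the replicate number as a block, 272 probe sets were called, 244 higher and 28 lower, the adjusted p of Gfi1 was 0.0188, no other member was called, and the call of Snai2 was lost (adjusted p = 0.0776).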
